A study of Homo sapiens with 9 samples.

Results

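The zinc finger windows of chromosome 19 are 6 stretches of hg19, together 10.9 Mb long, in which genes for KRAB zinc finger proteins are known to lie in tandem. They run from 11.6 to 12.6 Mb (window 1), 19.8 to 22.5 Mb (window 2), 36.6 to 38.4 Mb (window 3), 44.3 to 45.0 Mb (window 4), 52.3 to 54.0 Mb (window 5) and 56.1 to 59.1 Mb (window 6). Overlapping peaks (1 bp or more) from 9 ATAC-seq libraries were joined into merged regions, and a region belonged to a window if its midpoint lay there. This gave 466 members, 14.3% of the 3250 merged regions of chromosome 19 and part of 94773 over chromosomes 1 to 22 and X. The rule uses position alone, though the windows were picked with earlier results of these data known. The width, score and calling of the members are compared with those of the 2784 other regions of the chromosome.

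ATAC-seq marks open chromatin by the insertions of the transposase Tn5. The libraries came from VCaP, a human prostate cancer cell line with a wild-type genotype label in every sample, in 3 groups of 3. VCaP16 is an enzalutamide-resistant VCaP line grown with 16 µM enzalutamide, an androgen receptor antagonist. VCaP_ENZ is VCaP given 10 µM enzalutamide for 96 h, and VCaP_DMSO is VCaP given the solvent. No VCaP16 library without the drug was analysed here, and the enzalutamide doses differ, so the line and its drug cannot be told apart. The resistant line is a single one. The lists held 57894, 57315 and 68921 peaks in VCaP16, 54033, 61744 and 53646 in VCaP_ENZ and 57677, 54757 and 53799 in VCaP_DMSO, and they carry no read counts. The depth of each library is therefore unknown, and the longest list is that of VCaP16 replicate 3.

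KRAB zinc finger proteins are transcription factors that bind DNA, often inside transposable elements, through arrays of C2H2 zinc fingers. Their KRAB domain recruits TRIM28, which brings in enzymes that write the repressive mark H3K9me3. Many of the genes arose by tandem duplication, and the long last exons of many of them carry H3K9me3 themselves while their promoters stay open.

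The label could be checked against gene order but not against hg19 positions. In the RefSeq table, which is on GRCh38.p14 and was used here for names and neighbours only, 264 of 1451 protein-coding genes of chromosome 19 (18.2%) had a zinc finger symbol of the ZNF, ZFP, ZIM or ZSCAN kind. Of these, 240 (90.9%) lay next to another such gene, and 212 stood in 19 unbroken runs of at least 5, the longest with 27 genes. The zinc finger genes of the chromosome are thus arranged in arrays. The runs were not placed on hg19, so the rest of chromosome 19 may hold some of these genes as well. No peak was assigned to a gene.

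The sequence of the members is not shown, since no hg19 genome was used here. RefSeq promoters of chromosome 19 genes with a zinc finger symbol are shown in its place, to let their make-up be seen. The genes were taken by symbol, without a check for a KRAB domain or for a place in the windows. The promoters hold 250 bases before and 50 after a gene's start, and 228 of the 264 zinc finger genes had one. Both examples lie on chromosome 19 (GRCh38.p14), ZNF132 on the minus strand and ZNF534 on the plus strand. They were chosen after the motif counts were seen, as the 2 promoters with the letters CCGGAAGT or their reverse complement, of genes in runs of at least 5, whose number of CpG dinucleotides is nearest the median of 20. They are written 5′ to 3′ and capitals mark those letters, a sequence that ETS factors can bind. ERG, the ETS factor that VCaP overexpresses from its TMPRSS2 fusion, belongs to that family.
ZNF132: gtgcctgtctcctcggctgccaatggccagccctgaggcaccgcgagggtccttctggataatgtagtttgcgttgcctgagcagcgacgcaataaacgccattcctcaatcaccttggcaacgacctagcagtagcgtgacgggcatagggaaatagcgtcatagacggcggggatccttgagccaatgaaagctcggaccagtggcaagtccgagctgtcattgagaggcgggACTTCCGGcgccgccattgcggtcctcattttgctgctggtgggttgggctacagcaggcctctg
ZNF534: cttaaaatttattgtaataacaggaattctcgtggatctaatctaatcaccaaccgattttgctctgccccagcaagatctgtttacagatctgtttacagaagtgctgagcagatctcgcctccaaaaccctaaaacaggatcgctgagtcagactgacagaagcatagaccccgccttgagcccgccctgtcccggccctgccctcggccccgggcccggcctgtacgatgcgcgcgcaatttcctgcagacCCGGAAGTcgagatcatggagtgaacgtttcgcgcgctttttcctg
In ZNF132 the marked letters begin 15 bases before the start, and in ZNF534 at base 5 after it.

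Zinc finger promoters held about as many CpG dinucleotides as the other promoters of the chromosome, within a narrower range. They held a median of 20 CpG dinucleotides (quartiles 14 and 26), against 21 (quartiles 9 and 31) in 957 other protein-coding promoters. Fewer than 10 CpG were present in 7.02% of zinc finger promoters and in 26.5% of the others. The letters CCGGAAGT, searched on both strands, were found in 45 zinc finger promoters (19.7%) and in 43 others (4.49%), or 7.43% of all 1185. CCAAT, bound by NFY, was found on either strand in 52.6% of zinc finger promoters and 37.1% of others, and GGGCGG, bound by SP and KLF factors, in 66.7% and 66.1%. These matches describe letters in the promoters, and no binding was measured.

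Open chromatin in the zinc finger windows was sparser, wider and stronger than on the rest of chromosome 19. The windows held 378, 372 and 395 peaks in the VCaP16 libraries, 355, 383 and 354 in VCaP_ENZ and 385, 358 and 371 in VCaP_DMSO. The libraries thus lay close together, with overlapping groups. Per Mb this was 34.2 ± 1.32 peaks in the windows and 41.5 ± 2.89 on the rest of the chromosome (SD, n = 9 libraries), a ratio of 0.824 ± 0.0301. The difference of -7.36 peaks per Mb was negative in all 9 libraries (two-sided exact sign-flip permutation test, p = 0.00391, the smallest that 9 libraries can give). The size of this difference rests on how length is counted and on which windows weigh most: it was -4.64 with the longest stretch without a peak kept in the length, -4.60 with scores of at least 5, and -1.82 for the median of the 6 windows.

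Window peaks were wider in every library. The median width was 619.5, 657 and 654 bp in VCaP16, 626, 683 and 615.5 bp in VCaP_ENZ and 683, 678 and 620 bp in VCaP_DMSO. On the rest of the chromosome the medians ran from 426 to 478.5 bp, so the ranges did not overlap. The difference was 198 ± 17.0 bp (SD, n = 9; exact sign-flip p = 0.00391), a ratio of 1.44 ± 0.0377. Since the windows had fewer but wider peaks, the sequence covered by peaks was similar: 23.4 ± 1.70 bp per kb in the windows and 21.8 ± 2.29 bp per kb elsewhere, higher in the windows in 9 of 9 libraries (exact sign-flip p = 0.00391).

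Window peaks also stood higher in each list. The authors' score was turned into a position from the top of its own list, where 0% is the strongest peak, so that no score is compared between libraries. The median position of window peaks was 23.4%, 23.1% and 21.9% in VCaP16, 20.7%, 20.7% and 21.0% in VCaP_ENZ and 20.2%, 20.6% and 20.8% in VCaP_DMSO. Peaks on the rest of chromosome 19 had medians of 43.3% to 46.2%, near the middle of the lists. The difference was -23.8 ± 1.42 percentage points (SD, n = 9; exact sign-flip p = 0.00391). Neighbouring window peaks lay a median of 20.8 ± 0.828 kb apart, against 14.7 ± 1.03 kb elsewhere (difference 6.04 kb, exact sign-flip p = 0.00391). Each exact sign-flip p stayed at 0.00391 after Benjamini-Hochberg adjustment over the 5 measures. All libraries come from 1 cell line and share the same windows, so these p-values measure the spread between libraries only. Whether replicates are separate cultures is not stated in the labels, and their spread may be technical.

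**Figure D1:**
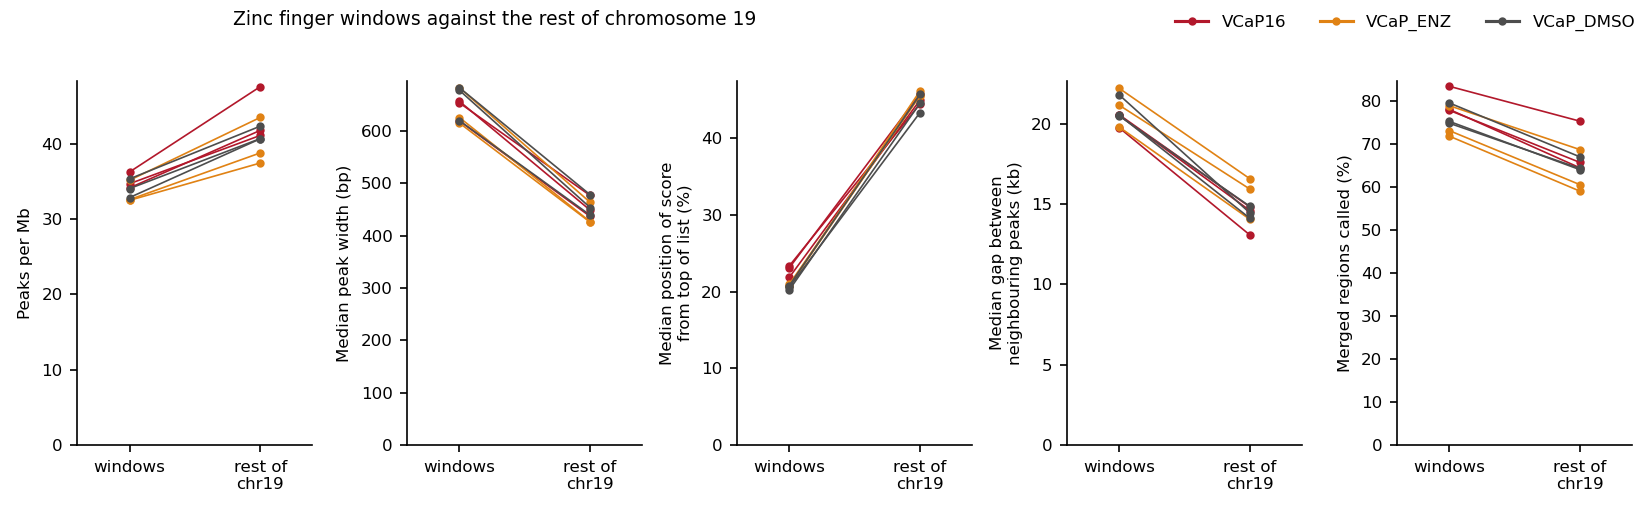
Measures per library in the zinc finger windows and on the rest of chromosome 19, with 1 line per library coloured by group. In each panel all lines slope the same way: fewer peaks per Mb (34.2 against 41.5 on average), wider peaks, positions nearer the top, wider gaps and a larger share of merged regions called in the windows.

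Members were called in more libraries than other regions of the chromosome. Of the 466 members, 296 (63.5%) were called in all 9 libraries, 112 (24.0%) in 2 to 8 and 58 (12.4%) in 1. On the rest of chromosome 19 the shares were 42.5%, 38.6% and 18.8%, and over all merged regions 34.9%, 42.5% and 22.6%. Members thus made up 14.3% of the regions of chromosome 19 but 20% of those called in every library. Per library, 78.1%, 77.9% and 83.5% of the members were called in VCaP16, 73.2%, 79.0% and 71.9% in VCaP_ENZ and 79.6%, 74.9% and 75.3% in VCaP_DMSO. The mean of 77.0% ± 3.58 was above the 65.5% ± 4.74 of the other regions (SD, n = 9; difference 11.5 points, exact sign-flip p = 0.00391). The difference was 6.43 points when only regions found in 2 or more replicates of any group were kept (exact sign-flip p = 0.00391).

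**Figure D2:**
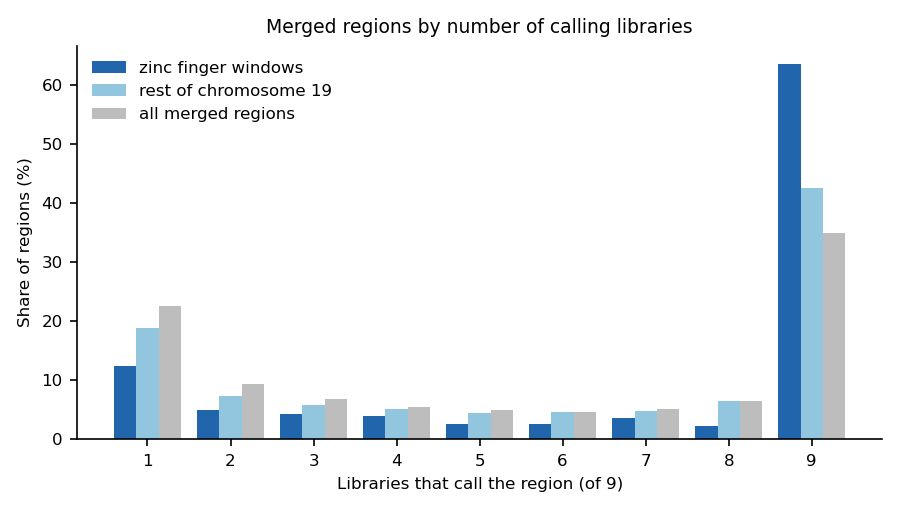
Share of merged regions by the number of the 9 libraries that call them, for the 466 members, the 2784 other regions of chromosome 19 and all 94773 regions. The members reach 63.5% at 9 libraries, against 42.5% on the rest of the chromosome, and are the lowest of the bars shown at every smaller number.

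Strong regions were more frequent among the members than among the other regions of the chromosome. Over the libraries that call it, a region's median position was within the top 5% for 52 members (11.2%), against 123 other regions of chromosome 19 (4.42%) and 2.85% of all regions. It was within the top 10% for 103 members (22.1%) and 234 other regions (8.41%), and within the top 25% for 204 members (43.8%) and 497 other regions (17.9%). Windows therefore held 29.7% of the chromosome's top 5% regions. All 204 of these members were called in every library, as were 494 of the 497 other regions of the chromosome. Over all merged regions it was 13641 of 13770. The members called in 2 to 8 libraries had a median position of 74.5%, close to the 76.3% of their counterparts elsewhere on the chromosome, and those called in 1 library 92.2%, against 92.8%.

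Width and calling moved together. Merged members called in all 9 libraries were 957.5 bp wide at the median, those called in 2 to 8 were 416.5 bp and those called in 1 were 231.5 bp, against 820 bp, 457.5 bp and 222 bp on the rest of the chromosome. A merged region can only gain width from further libraries, so these quantities are not independent. Chromosome 19 regions were divided by width into 5 classes of about equal size: the widest, above 918 bp, held 165 members (35.4%) but 485 other regions (17.4%), and the narrowest, up to 295 bp, held 64 members (13.7%) and 590 others (21.2%). Within a class the mean share of libraries with a call differed less than over all regions. From the narrowest class to the widest it was 19.4%, 45.9%, 78.7%, 97.0% and 99.6% in the windows, against 18.1%, 48.7%, 78.0%, 92.2% and 98.1% elsewhere. The share of regions called in all 9 libraries differed more in the upper classes: it was 53.2% in the windows and 43.3% elsewhere in the middle class, 90.4% and 75.2% in the next, and 98.2% and 91.1% in the widest. In the class from 295 to 474 bp it was lower in the windows, at 8.45% against 12.5%. Positions of regions of like width still differed. In the class from 665 to 918 bp the median position was 19.7% for members and 40.6% for others, and in the widest it was 10.7% and 24.1%. In the narrower classes, from the narrowest up, members stood at 87.3%, 73.1% and 51.7%, against 90.8%, 76.3% and 60.9%. Ranked only among regions called in all 9 libraries, the 8 members under 500 bp wide stood lower than 105 others, at 77.9% against 69.8%. Split this way the regions share libraries, and these values are a description with no test.

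**Figure D3:**
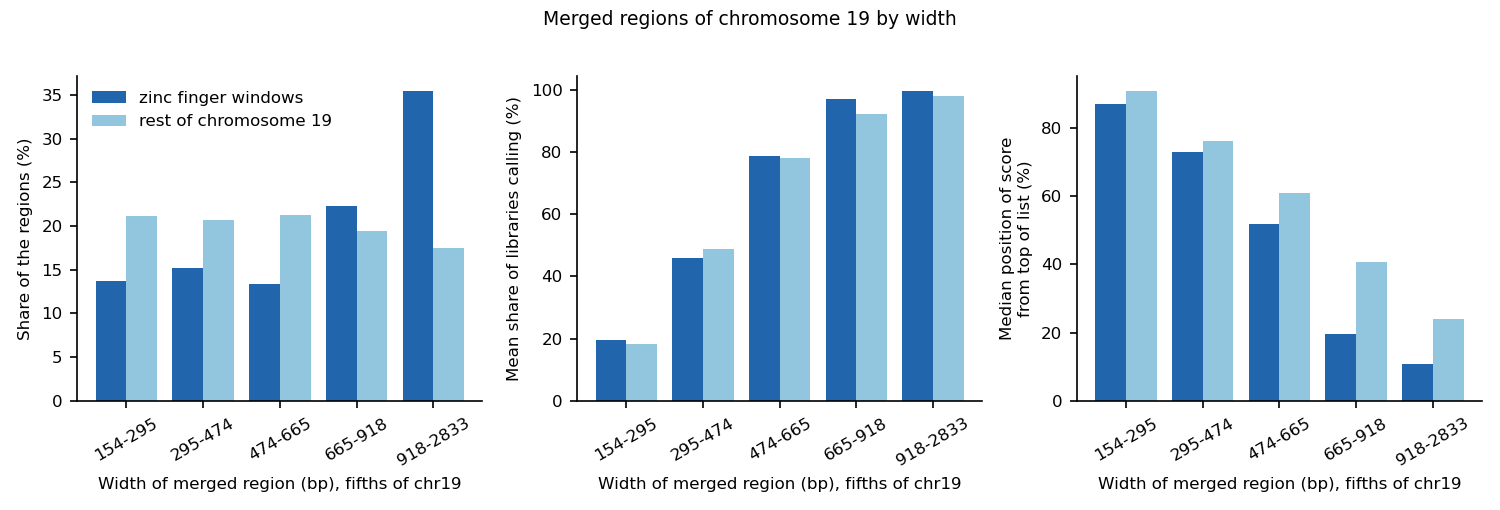
Chromosome 19 regions in 5 classes of width: the share of regions that fall in each, the mean share of libraries calling them, and their median position from the top of the list. Members sit more often in the widest class (35.4% against 17.4%). Their mean share called is 97.0% against 92.2% in the class from 665 to 918 bp and 45.9% against 48.7% in the class from 295 to 474 bp. They stand nearer the top in every class, by most from 665 bp upward (19.7% against 40.6% and 10.7% against 24.1%).

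The windows were compared with the rest of the chromosome one by one, in 30 tests adjusted together. In all 6 windows the peaks were wider, stood nearer the top, lay further apart and belonged to regions called more often (adjusted exact sign-flip p = 0.00419 for each, and 0.0162 for the gap in window 6, which was larger in 8 of 9 libraries). Peak number did not follow this pattern. Windows 2, 3 and 4 had fewer peaks per Mb than the rest, at 16.5 ± 1.08, 28.1 ± 1.67 and 37.6 ± 2.14, while windows 1 and 5 had more, at 44.7 ± 2.55 and 47.3 ± 1.47, against 41.5 ± 2.89 on the rest (SD, n = 9; adjusted exact sign-flip p = 0.00419 each). Window 6, at 41.9 ± 1.94, did not pass the test (adjusted exact sign-flip p = 0.434). The lower density of the windows together thus came from windows 2, 3 and 4. Their differences from the rest were -25.1, -13.4 and -3.90 peaks per Mb, by far the largest in window 2.

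Window 3 had the strongest and widest peaks at the median, at a position of 11.2% and a width of 799 ± 50.1 bp. Of its 62 members, 43 (69.4%) were called in every library. Window 5 was the densest, with 98 members, and stood lowest in the lists of the 6, at 33.7% ± 2.76, still above the rest of the chromosome. Window 2, the one nearest the centromere, was the emptiest. Its 59 members lay in 2.7 Mb, its peaks were a median of 35.8 kb apart, and they were the narrowest of the windows at 586 ± 44.9 bp. The smallest window, window 4, had 30 members, of which 22 (73.3%) were called in all 9 libraries. Window 1 had 56 members and window 6, the largest, 161, of which 62.5% and 60.9% were called everywhere. In peak width, window 1 stood at 691 ± 50.9 bp, window 5 at 669 ± 48.5 bp, window 4 at 646 ± 61.6 bp and window 6 at 625 ± 24.6 bp. Windows next to each other in this order of width differed by less than 1 SD between libraries. Windows 1 and 6 differed by more than that.

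**Figure D4:**
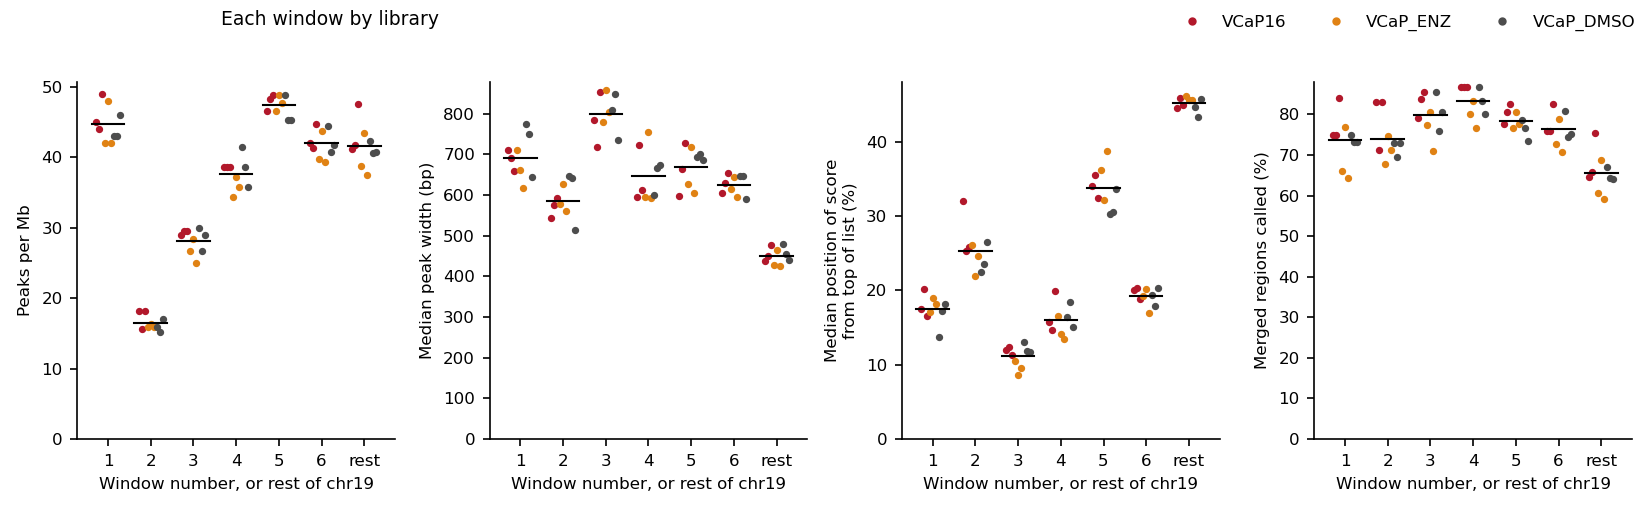
Peaks per Mb, median peak width, median position and share of regions called in each window and on the rest of chromosome 19, with 1 point per library (VCaP16, VCaP_ENZ and VCaP_DMSO from left to right) and a bar at the mean. Width, position and share differ from the rest in every window, while peaks per Mb range from 16.5 in window 2 to 47.3 in window 5.

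The best-ranked member of each window was open in all 9 libraries and stood within the top 2% of every list. In window 5 it was chr19:52692551-52693661, with scores of 121, 124 and 139 in VCaP16, 166, 179 and 145 in VCaP_ENZ and 180, 157 and 147 in VCaP_DMSO. Its median position was 0.279%, the best of all members. In window 2 it was chr19:20162688-20163535, with scores of 101, 119 and 122 in VCaP16, 158, 128 and 140 in VCaP_ENZ and 138, 139 and 139 in VCaP_DMSO, at a median position of 0.438%. Both stood within the top 1% in each list. The others were chr19:58816212-58817297 in window 6 (0.656%), chr19:36705100-36706116 in window 3 (0.674%), chr19:12443828-12444904 in window 1 (0.731%) and chr19:44668701-44669474 in window 4 (0.922%). Their widths ran from 774 to 1111 bp, so the strongest members were not the widest.

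The widest members varied more in strength. The widest of all was chr19:57348506-57351315 in window 6, of 2810 bp, at a median position of 5.06%, with scores of 56.2, 48.2 and 63.8 in VCaP16, 53.4, 79.2 and 50.2 in VCaP_ENZ and 65.7, 66.7 and 73.7 in VCaP_DMSO. Those of windows 1, 3 and 4, of 1973, 2085 and 1525 bp, stood at 10.0%, 13.5% and 11.3%. By contrast chr19:21786866-21788312 in window 2, of 1447 bp, stood at 55.9% and chr19:53970149-53972138 in window 5, of 1990 bp, at 37.3%. Wide members could thus be weak. In 40 members (8.58%) at least 1 library had several peaks in the merged region, against 138 other regions of the chromosome (4.96%).

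Between groups, the share of members called did not differ beyond the spread of replicates. It averaged 79.8% ± 3.16 in VCaP16, 74.7% ± 3.77 in VCaP_ENZ and 76.6% ± 2.61 in VCaP_DMSO (SD, n = 3 each), and the groups overlapped. VCaP16 was 4.18 points above the 6 VCaP libraries together (two-sided exact permutation test over 84 splits, p = 0.107, adjusted over the 4 comparisons 0.4). Against VCaP_DMSO alone it was 3.22 points higher (exact permutation p = 0.3), and VCaP_ENZ was 1.93 points lower than VCaP_DMSO (difference -1.93, exact permutation p = 0.5). VCaP16 was 5.15 points above VCaP_ENZ (exact permutation p = 0.3). These sizes turn on single libraries: without VCaP16 replicate 3 the first was 2.51 and the second 1.38 points, and the difference of VCaP_ENZ from VCaP_DMSO was -0.43 points without VCaP_DMSO replicate 1 and -3.89 without VCaP_ENZ replicate 2. With 3 libraries on each side 0.1 is the smallest p possible. Peak number in the windows (381.7 ± 11.9 in VCaP16, 364 ± 16.5 in VCaP_ENZ and 371.3 ± 13.5 in VCaP_DMSO) and median width (643.5 ± 20.8, 641.5 ± 36.3 and 660.3 ± 35.0 bp) overlapped between groups as well, with exact permutation p of 0.202 and 0.75 for VCaP16 against the 6 VCaP libraries.

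The excess of called regions in the windows over the rest of the chromosome was alike in the groups as listed. VCaP16 passed the test against the 6 VCaP libraries only with lists made equally long. As listed it was 11.3 ± 2.84 points in VCaP16, 11.9 ± 1.43 in VCaP_ENZ and 11.4 ± 1.03 in VCaP_DMSO (SD, n = 3 each), and VCaP16 differed from the 6 VCaP libraries by -0.37 points (exact permutation p = 0.798). With the 53646 best peaks of every list, the length of the shortest, merged anew, it was 13.4, 12.8 and 12.5 points in VCaP16, 10.5, 10.9 and 11.02 in VCaP_ENZ and 11.5, 9.11 and 9.04 in VCaP_DMSO. All 3 VCaP16 libraries then lay above all 6 VCaP libraries, by 2.55 points on average (exact permutation p = 0.0119, the smallest that 84 splits allow, adjusted 0.0476). Against VCaP_DMSO and VCaP_ENZ alone it was 3.01 and 2.09 points (exact permutation p = 0.1 each, adjusted 0.133). Against the 6 VCaP libraries it was -0.37 with scores of at least 5 and -0.81 with 50% of the region covered. It was 1.34 as listed without VCaP16 replicate 3. With these lists the share called was 81.2% ± 0.264 in VCaP16 and 79.1% ± 1.95 in the 6 VCaP libraries for the windows. On the rest of the chromosome it was 68.3% ± 0.717 in VCaP16, against 68.8% ± 2.17 in the 6 VCaP libraries. Neither place alone passed the test (VCaP16 against VCaP, exact permutation p = 0.107 and 0.762).

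Position in the list was the measure that separated VCaP16 as listed. Window peaks stood at a median of 22.8% ± 0.799 in VCaP16, 20.8% ± 0.148 in VCaP_ENZ and 20.5% ± 0.289 in VCaP_DMSO (SD, n = 3 each). All 3 VCaP16 libraries lay further from the top than all 6 VCaP libraries, by 2.11 points on average (exact permutation p = 0.0119, adjusted 0.0476). Without any 1 of the 9 libraries it was 1.82 to 2.57 points and the adjusted exact permutation p was 0.0714 to 0.133. With fewer splits the unadjusted p of 0.0179 (a VCaP_ENZ or VCaP_DMSO library left out) or 0.0357 (a VCaP16 library left out) is the smallest possible. With scores of at least 5 the adjusted exact permutation p was 0.0952. Positions depend on how many weak peaks a list holds below, and lists of different length show no change by themselves. With equally long lists the difference was 3.119 points, again with no overlap (24.0% ± 0.451 in VCaP16 and 20.9% ± 0.354 in VCaP_ENZ and VCaP_DMSO together; exact permutation p = 0.0119). When only the 33033 regions called in all 9 libraries were ranked against each other, the 296 members among them stood at 27.0%, 28.2% and 29.3% in VCaP16, 27.3%, 26.0% and 26.3% in VCaP_ENZ and 25.7%, 27.9% and 25.6% in VCaP_DMSO. Those groups overlapped, and the difference of 1.71 points did not pass the test (exact permutation p = 0.0595, adjusted 0.238). The test was thus passed over whole lists and missed in the regions that every library shares. VCaP_ENZ and VCaP_DMSO differed by 0.26 points over whole lists (exact permutation p = 0.3) and by 0.122 points in the shared regions (exact permutation p = 1.0).

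**Figure D5:**
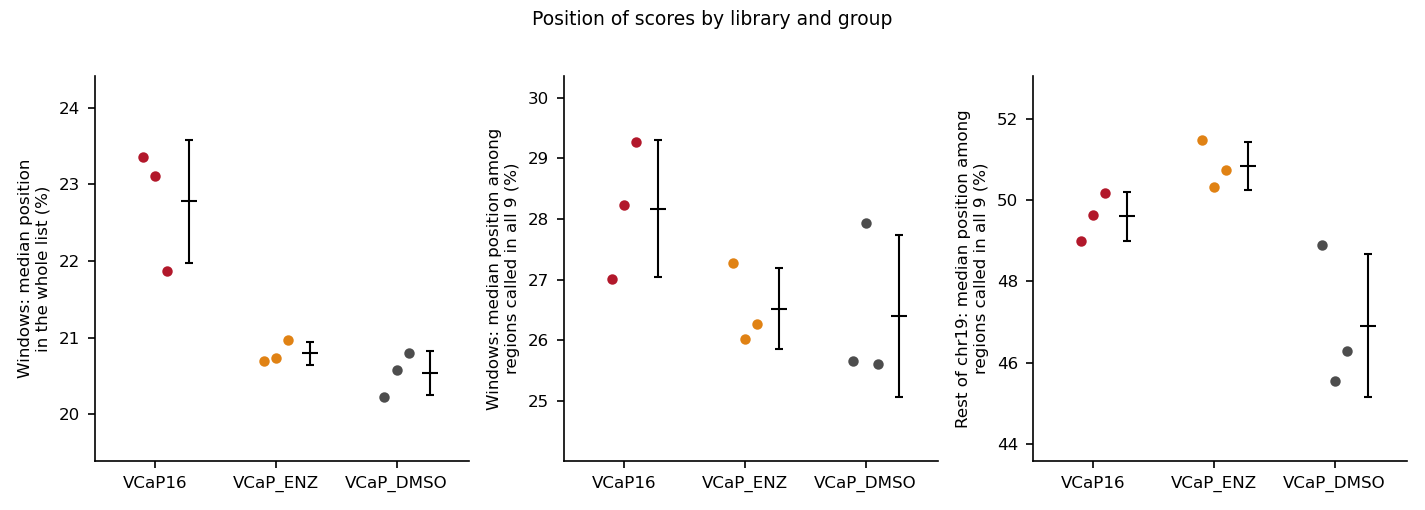
Median position from the top, by library (points) with mean and SD at the right, for window peaks in whole lists, for members among the regions called in all 9 libraries, and for the other chromosome 19 regions among those. The axes do not start at 0. VCaP16 lies apart from the other groups in whole lists (21.9% to 23.4% against 20.2% to 21.0%) and overlaps them in the shared regions.

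Few members were called in one group and not in another. For VCaP16 against VCaP_DMSO, 1 member (0.215%) was called in all 3 VCaP16 and no VCaP_DMSO libraries, against 1.63% of all merged regions, and 1 in the reverse direction, against 0.532%. For VCaP_ENZ against VCaP_DMSO, 1 member was called in all 3 libraries with the drug and none with the solvent, against 0.653% of all regions, and 3 (0.644%) in the reverse direction, against 0.557%. For VCaP16 against VCaP_ENZ there were 3 in the VCaP16 direction, against 1.13% of all regions, and 0 in the reverse direction, against 0.41%. No member separated all 3 VCaP16 libraries completely from the 6 VCaP libraries in either direction, where the shares over all regions were 0.549% and 0.0876%. On the rest of chromosome 19 the same counts were 26 and 18, 13 and 24, 27 and 5, and 11 and 1 of 2784 regions. The members' shares are all below or close to those of all regions. A region called in all 9 libraries cannot show such a pattern, and these were 63.5% of members but 34.9% of all regions. Low shares are therefore not read as a trait of the members.

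Such counts turn on single libraries. VCaP16 against VCaP_DMSO gave 4, 5 and 3 members without VCaP16 replicates 1, 2 and 3, and 3, 4 and 3 without VCaP_DMSO replicates 1, 2 and 3. The reverse direction gave 2, 2 and 4 without the VCaP16 replicates in that order and 2 without VCaP_DMSO replicate 3. VCaP16 against VCaP_ENZ gave 13, 8 and 5 without the VCaP16 replicates and 7 without VCaP_ENZ replicate 2, and its reverse gave 1 without VCaP16 replicate 2 and 2 without VCaP_ENZ replicate 3. VCaP_ENZ against VCaP_DMSO gave 2, 2 and 5 without the VCaP_ENZ replicates and 2 without VCaP_DMSO replicate 1 or 2. Its reverse gave 8 without VCaP_ENZ replicate 2, and 5 and 8 without VCaP_DMSO replicates 2 and 3. VCaP16 against the 6 VCaP libraries gave 3, 2 and 1 without the VCaP16 replicates and 1 without VCaP_ENZ replicate 2 or VCaP_DMSO replicate 2 or 3. A count asks for a call in all remaining libraries of a group, so the rule is looser with a library left out.

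The few members with such a pattern stood in the middle or the lower part of the lists. The member at chr19:53693040-53693655 in window 5 scored 8.23, 6.88 and 7.41 in VCaP16 and was not called in VCaP_DMSO, but was called in VCaP_ENZ replicate 2 with a score of 6.47. The member at chr19:57442331-57442783 in window 6 scored 14.6, 8.42 and 6.72 in VCaP_DMSO and was called in none of the other 6 libraries. It is therefore counted against VCaP16 and is 1 of the 3 counted against VCaP_ENZ. At chr19:58525880-58526352 in window 6 the scores were 12.1, 20.3 and 12.5 in VCaP_ENZ, with none in VCaP_DMSO and 10.0 in VCaP16 replicate 2. Their median positions in the calling group were 73.0%, 65.5% and 46.7%. The other 2 members called in VCaP_DMSO and not in VCaP_ENZ lie in window 1, at chr19:11769877-11770591 and chr19:11895884-11896275, and the first was also called in 1 and the second in 2 VCaP16 libraries. The 3 members called in VCaP16 and not in VCaP_ENZ, at chr19:56821004-56821244, chr19:44324714-44324983 and chr19:56622021-56622341, were 241 to 321 bp wide and each was also called in 1 or 2 VCaP_DMSO libraries. The first of these scored highest of the 3, with scores of 13.3, 12.1 and 13.6 in VCaP16 and 14.6 and 12.6 in VCaP_DMSO replicates 1 and 2.

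No member passed Fisher's exact test of 3 VCaP16 against 6 VCaP libraries after Benjamini-Hochberg adjustment over all 94773 regions, and 0% of all regions did (smallest adjusted p = 1.0). At an unadjusted p below 0.05, 3 members were called more often in VCaP16, against 1.33% of all regions, and 0 less often, against 0.296%. The smallest p that this design allows is 0.0119. After adjustment a region could pass only if a large share of all regions reached that p. The absence of calls therefore says nothing about the members.

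Among the 296 members open in every library, those whose positions did not overlap between groups were counted. In 11 members (3.72%) all 3 VCaP16 libraries stood further from the top than all 6 VCaP libraries, against 3.39% of all 33033 shared regions and 3.13% on the rest of chromosome 19. In 2 members (0.676%) they stood nearer the top, against 3.7% and 2.87%. For VCaP_ENZ against VCaP_DMSO, 30 members (10.1%) stood further from the top and 20 (6.76%) nearer, against 7.52% and 8.27% of all shared regions and 10.6% and 5.83% on the rest of the chromosome. The share of members nearer the top in VCaP16, a count of 2, was below that of the rest of the chromosome. The other shares were close to those of the rest. No test was made, and nothing is read from these shares about the members.

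The members with the largest such differences were picked after their values were seen, and are a description. At chr19:21646135-21646929 in window 2 the position among shared regions was 48.1%, 38.2% and 30.7% in VCaP16, 15.9%, 19.4% and 15.8% in VCaP_ENZ and 21.7%, 25.9% and 13.7% in VCaP_DMSO. At chr19:53103954-53105512 in window 5 it was 56.4%, 59.5% and 55.6% in VCaP16, 34.0%, 46.3% and 42.8% in VCaP_ENZ and 33.6%, 26.6% and 44.0% in VCaP_DMSO. Both thus stood lower in the resistant line, by 20.2 and 19.3 points on average against the 6 VCaP libraries. The third was chr19:44645159-44646525 in window 4, lower by 15.6 points. The 2 members that stood nearer the top in VCaP16 both lie in window 6. At chr19:56164991-56166732 the positions were 9.81%, 7.54% and 8.37% in VCaP16, 32.3%, 11.4% and 20.8% in VCaP_ENZ and 25.6%, 13.7% and 14.3% in VCaP_DMSO. At chr19:58520743-58521685 the VCaP16 libraries stood at 6.51% to 8.37% and the 6 VCaP libraries at 10.6% to 19.04%.

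Regions next to the window edges were examined because the edges are round numbers. The 24 members nearest an edge inside lay 2.13 to 436 kb from it, with a median width of 767.5 bp, and 14 were called in all 9 libraries. The 22 nearest regions outside lay 1.18 to 566 kb away, with a median width of 612 bp, and 12 were called in all 9. The distances above 100 kb were all at the upper edge of window 2.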

How the data were processed

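Accessible chromatin was measured by ATAC-seq in 9 VCaP and VCaP16 libraries. Per the labels' protocols, cells for bulk libraries were crosslinked with formaldehyde before tagmentation; that text also describes a single-cell preparation. MACS2 2.2.7.1, HOMER 3.12, BWA 0.7.15-r1140 and the build hg19 come from the submitters' processing notes, which give no roles or settings. Read filters and any Tn5 shift are not stated in what was used here. Peak lists were deposited by the authors, 1 peak list per library with position and score. The deposited score was taken as a −log10 p-value or q-value, since none is below 2.00, and was used only for ranks within a list; it grows with depth, which is unknown, as does the number of peaks.

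Peaks on chromosomes 1 to 22 and X were merged at an overlap of 1 bp. Per-library values in the windows and on the rest of chromosome 19 (44.8 Mb, without the longest stretch free of peaks) were compared with two-sided exact sign-flip tests. Groups were compared with exact permutation tests, and Benjamini-Hochberg adjustment was used within each measure (Python 3.11.15, numpy 2.4.6, scipy 1.17.1). Named regions are the best-ranked member open in all libraries and the widest member per window, and up to 3 per direction of each comparison. Counting was tested on simulated lists. Members, windows and lists were chosen with earlier results of these data known. Ranks among shared regions, covered bases, width classes and promoter motifs were added after seeing the data. Other settings tried are given at the end.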

Additional observations from a re-analysis of the deposited data

Results flagged for a closer look

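The excess of strength in the zinc finger windows was compared between groups. It appears here because the contrast of window peaks with the rest of chromosome 19 differed between VCaP16 and VCaP at an unadjusted p below 0.05, which did not hold after adjustment. The median position of window peaks minus that of the other peaks was -21.1, -22.7 and -23.1 points in VCaP16, -25.5, -24.9 and -24.6 in VCaP_ENZ and -24.3, -22.8 and -24.9 in VCaP_DMSO. VCaP16 and the 6 VCaP libraries differed by 2.199 points (exact permutation p = 0.0238, adjusted over 4 comparisons 0.0952), with VCaP16 replicate 3 within the range of VCaP_DMSO. With equally long lists the difference was 2.89 points (exact permutation p = 0.0238), and among the regions called in all 9 libraries it was 0.988 points (exact permutation p = 0.619). Over whole lists VCaP16 differed by 2.69 points from VCaP_ENZ (exact permutation p = 0.1, the smallest possible) and by 1.71 points from VCaP_DMSO (exact permutation p = 0.2). VCaP_ENZ differed from VCaP_DMSO by -0.99 points (exact permutation p = 0.3). Among shared regions VCaP16 differed by 2.90 points from VCaP_ENZ (exact permutation p = 0.1) and, in the other direction, by -0.92 points from VCaP_DMSO (exact permutation p = 0.7). VCaP_ENZ differed there from VCaP_DMSO by -3.82 points (exact permutation p = 0.1). This measure was chosen after seeing the data.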

How the results depend on the processing

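The 5 differences between the windows and the rest of chromosome 19 kept their direction and passed their test in all 31 recomputations under other settings. Not every setting applies to all 5 measures. The same held in all 45 recomputations with a library left out. Between groups, 160 of 180 values with a library left out and 111 of 120 under other settings kept direction and call. With equally long lists the share called, windows minus rest, turned to 2.55 points for VCaP16 against the 6 VCaP libraries, 3.01 against VCaP_DMSO and 2.09 against VCaP_ENZ. Peak number against VCaP_DMSO turned to -1.67 and width against the 6 VCaP libraries to 5.0 bp. With a score of at least 5 the share difference between VCaP16 and VCaP_DMSO turned to 0.16 points. The VCaP16 position difference missed its adjusted threshold at 1.71 points when ranked among regions called in all 9 libraries, at 2.13 with a score of at least 5, and at 1.82 to 2.57 with a library left out, where fewer splits limit p. With a library left out, the share called in the windows ran from 2.51 to 5.21 points (VCaP16 against the 6 VCaP libraries), 1.38 to 4.78 (VCaP16 against VCaP_DMSO) and -3.89 to -0.43 (VCaP_ENZ against VCaP_DMSO). The second of these was 0.84 with equally long lists. With a library left out, the share called, windows minus rest, ran from -1.66 to 1.34 points (VCaP16 against the 6 VCaP libraries), -1.56 to 1.43 (VCaP16 against VCaP_DMSO), -1.79 to 1.25 (VCaP16 against VCaP_ENZ) and -0.10 to 1.57 (VCaP_ENZ against VCaP_DMSO). Width ran from -14.5 to 4.58 bp against the 6 VCaP libraries and -11 to 22.8 bp against VCaP_ENZ.

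Counts of members called in one group only were small and moved often. In the order VCaP16 not VCaP, VCaP16 not VCaP_DMSO, the reverse, VCaP_ENZ not VCaP_DMSO, the reverse, VCaP16 not VCaP_ENZ and the reverse, they were 6, 10, 2, 7, 10, 20 and 2 when 2 of 3 calling libraries (4 of 6 for VCaP) sufficed. With a library left out they ran from 0 to 3, 1 to 5, 1 to 4, 1 to 5, 3 to 8, 3 to 13 and 0 to 2. With 50% of the region covered the first 4 were 1, 3, 2 and 0, and VCaP16 not VCaP_ENZ was 6. With windows widened by 100 kb on each side, the first 3 were 1, 3 and 2, and VCaP_DMSO not VCaP_ENZ was 5, as with equally long lists. With a score of at least 5, VCaP16 not VCaP_DMSO and VCaP_ENZ not VCaP_DMSO were 2 each. Except for construction (looser rules, wider windows, fewer libraries), the cause was not tested.

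Same-numbered libraries were no more alike than others: their deviations correlated at -0.0101 to 0.00556, against -0.0120 to 0.0194 for other numbers. The labels do not say what a number marks, so whether the samples are paired is not settled. With the replicate number as a block the VCaP16 position difference of 2.11 points gave p = 0.037 by exact permutation within blocks, as low as 3 blocks can go, and lost its call once adjusted (0.148). No other call changed. Depth per library is unknown, so weak members may be missed.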

Other observations

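The spacing of regions open in every library was compared. Neighbouring members called in all 9 libraries lay a median of 27.3 kb apart (quartiles 12.3 and 40.2 kb, 290 gaps), against 21.6 kb (quartiles 10.4 and 40.7 kb, 1178 gaps) between such regions on the rest of chromosome 19. Pairs closer than 5 kb made up 7.59% and 7.81% of the gaps. No test was made over gaps.

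Of the 58 members called in a single library, 10, 5 and 14 belonged to the VCaP16 libraries, 5, 6 and 2 to VCaP_ENZ and 7, 3 and 6 to VCaP_DMSO. The longest list, VCaP16 replicate 3, had the most. The counts did not otherwise follow list length: VCaP_ENZ replicate 2, with 61744 peaks, had 6, and VCaP16 replicate 1, with 57894, had 10. Regions called in a single library were 12.4% of members and 22.6% of all regions. Their split by library over all regions is not given here, so nothing is read from these counts about the members. Of the 10 members missing from a single library, 2, 1 and 0 were missing in VCaP16, 3, 0 and 1 in VCaP_ENZ and 1, 2 and 0 in VCaP_DMSO.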
